A study of Mus musculus with 7 samples.

Results

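The genes described here encode the spindle assembly checkpoint, its target Cdc20, the Aurora kinases and the polo-like kinase Plk1. They are 10 of the 22877 genes in the table, chosen by gene symbol: Mad2l1, Bub1, Bub1b, Bub3, Ttk, Cdc20, Aurka, Aurkb, Aurkc and Plk1. The libraries are of oocytes taken out of secondary follicles of C57BL/6J mice aged 8 weeks in which Mfn1, a gene for mitochondrial outer membrane fusion had been deleted (Mfn1 fl/fl; Zp3-Cre), and of their WT littermates. Zp3-Cre is active in growing oocytes, so these and not the follicle cells are targeted. Each library held cDNA from 5 pooled oocytes, amplified by Smart-Seq2, and the labels give 3 Mfn1-/- and 4 WT libraries. The table gives 1 mean of normalized signal per genotype for each gene. The authors' own test of the genotypes was not used here. From the means alone no spread between libraries and no test can be given, and every difference below is a ratio of 2 means without a replicate check. The question was how the transcripts of the chromosome segregation machinery compare between oocytes with and without Mfn1.

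In a dividing cell, the checkpoint holds back anaphase until kinetochores are attached to spindle microtubules. Ttk and Bub1 are kinases that start the signal, Bub3 anchors Bub1 and Bub1b (BubR1) at the kinetochore, and Mad2l1 (Mad2) and Bub1b bind Cdc20, the activator of the anaphase-promoting complex. Aurora A acts at spindle poles, Aurora B and C act in the chromosomal passenger complex that corrects faulty attachments, and Aurora C is found mainly in germ cells. Oocytes of secondary follicles are growing and arrested in prophase of meiosis I, and they store transcripts that are used later, when meiosis resumes.

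The targeted gene was compared before the others. Mfn1 had a mean of 0.0577 in Mfn1-/- oocytes and 0.616 in WT oocytes, which is 10.7-fold lower and a log2 ratio of -2.18. The log2 ratio is that of the Mfn1-/- mean over the WT mean after 0.1 was added to each. The lowest mean the table holds is 0.01. Mfn1 was thus low in both genotypes, and lower where it had been deleted.

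All 10 members were detected, with WT means between 3.10 for Bub1 and 38.0 for Mad2l1, a 12.3-fold span. The signal behaves as a value per transcript length, so levels may be compared between genes. In the WT oocytes the order from high to low was Mad2l1, Aurkc, Aurka, Cdc20, Bub3, Plk1, Bub1b, Ttk, Aurkb and Bub1. In the Mfn1-/- oocytes Mad2l1 again led, and Aurkc stood at place 5 instead of place 2, behind Aurka, Cdc20 and Bub3. Neighbours in this order such as Bub1, Aurkb and Ttk lie close together, and their order cannot be set against a spread.

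**Figure D1:**
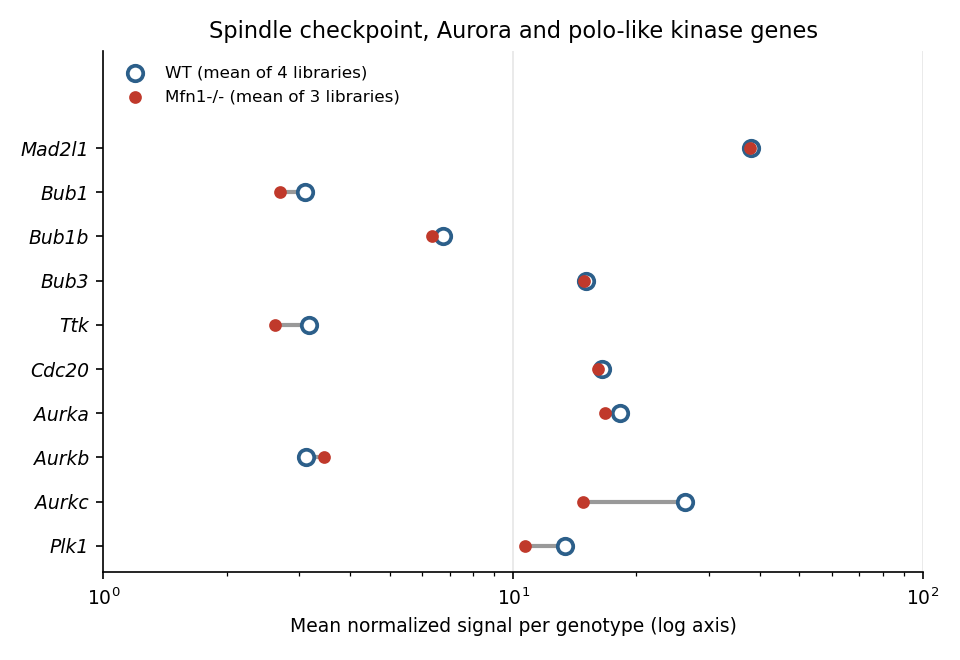
Mean normalized signal of each of the 10 genes on a log axis, with open circles for WT (mean of 4 libraries) and filled circles for Mfn1-/- (mean of 3 libraries). The circles nearly coincide for Mad2l1, Bub3 and Cdc20 and lie farthest apart for Aurkc, at 26.3 in WT and 14.8 in Mfn1-/-.

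The checkpoint genes differed little between the genotypes. Mad2l1, which forms the Cdc20 inhibitor, was at 37.9 in Mfn1-/- and 38.0 in WT oocytes. Bub3 had 14.9 and 15.1. Bub1b had 6.34 and 6.74, which is 5.93% lower in Mfn1-/- oocytes and the largest difference of these 3 genes. The kinases at the top of the signal were somewhat lower: Bub1 was at 2.70 in Mfn1-/- and 3.10 in WT oocytes, and Ttk (Mps1) was at 2.63 and 3.18, a log2 ratio of -0.26. Summed over the 5 checkpoint genes, the signal was 64.5 in Mfn1-/- and 66.1 in WT oocytes. Cdc20, on which the checkpoint acts, was at 16.1 and 16.5. The ratio of Mad2l1 to Cdc20 was 2.35 in Mfn1-/- and 2.30 in WT oocytes, so the inhibitor and its target kept nearly the same proportion of transcripts. Bub3 stood at 1.65 times the sum of its partners Bub1 and Bub1b in Mfn1-/- and 1.53 times in WT oocytes.

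Plk1, which promotes spindle assembly and anaphase entry, was at 10.7 without Mfn1 and at 13.4 in WT oocytes, a log2 ratio of -0.32. Among the Aurora kinases, Aurka was at 16.8 and 18.2, 7.69% lower in Mfn1-/- oocytes. Aurkb was at 3.46 and 3.12, and it was the only member with a higher mean in Mfn1-/- oocytes, at a log2 ratio of 0.14 that turned to -0.01 once the median of all genes with a mean of at least 1 was subtracted. Aurkc was at 14.8 and 26.3, 43.7% lower in Mfn1-/- oocytes, at a log2 ratio of -0.83. By these values Aurkc made up 55.2% of the summed Aurora signal in WT oocytes and 42.2% in Mfn1-/- oocytes, while Aurka made up 38.2% and 47.9%. The summed signal of the 10 members was 126 in Mfn1-/- and 144 in WT oocytes, and Aurkc accounted for 66.4% of that difference. Aurka and Aurkb together gave 20.3 in Mfn1-/- and 21.3 in WT oocytes.

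The value of Aurkc is uncertain, because much of its transcript is found nearly letter for letter in other annotated genes. Aurkc lies on the plus strand at chr7:6995300-7003091 (GRCm38). Of the 1327 windows of 75 bases, the read length, in its longest protein-coding transcript, 727 (54.8%) occur without a mismatch in the transcript of at least 1 other gene. For 6 of the 10 members the number was 0, and for Mad2l1, Cdc20 and Plk1 it was 0.294%, 4.89% and 6.26%. The closest copy of Aurkc is Gm12463, a processed pseudogene on the minus strand at chr4:44752277-44753125, whose 849 bases align to Aurkc with 99.2% identity. The other 6 are unprocessed pseudogenes between chr7:10810780 and chr7:11468554, with 95.2% to 96.9% identity over 415 to 990 bases. These 7 copies are those with at least 95% identity in the alignment. Gm45549, at 0.0725 in Mfn1-/- and 0.0866 in WT oocytes, and Gm7210, at 0.0636 and 0.0401, lie outside that criterion but hold 7 and 31 of the windows. By contrast, the longest match between the Aurkb and Aurkc transcripts that passed the identity cutoff of the search was 80.1% identity over 151 bases. Less similar stretches were not kept.

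To show how little separates the gene from this copy, the 150 bases of the coding part with the most differences are printed 5′ to 3′, with the differing bases in capitals. In Aurkc they are bases 854 to 1003 of a transcript of 1154 bases whose coding part runs from base 61 to 1005, and they come from 2 exons at chr7:7002530-7002940. In Gm12463 they lie at chr4:44752300-44752449. Both are from GENCODE M21 on GRCm38.
Aurkc: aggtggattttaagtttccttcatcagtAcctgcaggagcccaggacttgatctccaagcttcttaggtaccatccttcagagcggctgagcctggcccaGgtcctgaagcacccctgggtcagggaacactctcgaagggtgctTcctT
Gm12463: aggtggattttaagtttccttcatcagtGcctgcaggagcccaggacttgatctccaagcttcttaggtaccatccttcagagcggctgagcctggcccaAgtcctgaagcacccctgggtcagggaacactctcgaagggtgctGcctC
Counted from 1 at the 5′ end of this stretch, with the base of Aurkc before the position, the differences are A29G, G101A, T146G and T150C. They are also the only 4 differences in the gap-free alignment of 829 bases from which the stretch was taken. Of the 775 windows of 75 bases in Gm12463, 630 occur without a mismatch in Aurkc.

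The pseudogene was the more abundant of the pair in the table. Gm12463 was at 161 in Mfn1-/- oocytes and at 277 in WT oocytes, and its log2 ratio was -0.78, against -0.83 for Aurkc. It thus stood at 10.9 times the Aurkc mean in Mfn1-/- and 10.5 times in WT oocytes. Among all genes it was at place 146 in Mfn1-/- and place 55 in WT oocytes. Of the 7 copies, 6 were lower in Mfn1-/- oocytes, and 3 had a mean of at least 1. All 7 were lower once the median log2 ratio of genes with a mean of at least 1 was subtracted, though the copies with lower means lie outside those genes. Gm7789 was at 1.45 and 2.52, Gm45598 at 0.615 and 1.45 (log2 ratio -1.12, the 1 copy past 2-fold), and Gm7203, the 1 copy with a higher mean in Mfn1-/- oocytes, at 0.792 and 0.746. When Gm12463 and Aurkc were summed, each weighted by transcript length, and expressed per length of Aurkc, the sum was 112 in Mfn1-/- oocytes and 194 in WT oocytes, a ratio of 0.579. Their joint signal was therefore lower in Mfn1-/- oocytes in nearly the same ratio as Aurkc alone. By length-weighted signal Gm12463 stood at 6.59 times Aurkc in Mfn1-/- and 6.38 times in WT oocytes. The sum thus mainly repeats the ratio of Gm12463 and is no separate check of Aurkc. How the authors' counting treated reads that match several genes is not given in the sources used here, and how much of this joint signal came from Aurkc itself was not tested. The order of Aurkc among the members and its share of the Aurora signal therefore cannot be fixed, since with Gm12463 counted as Aurkc it would stand above every other member.

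**Figure D2:**
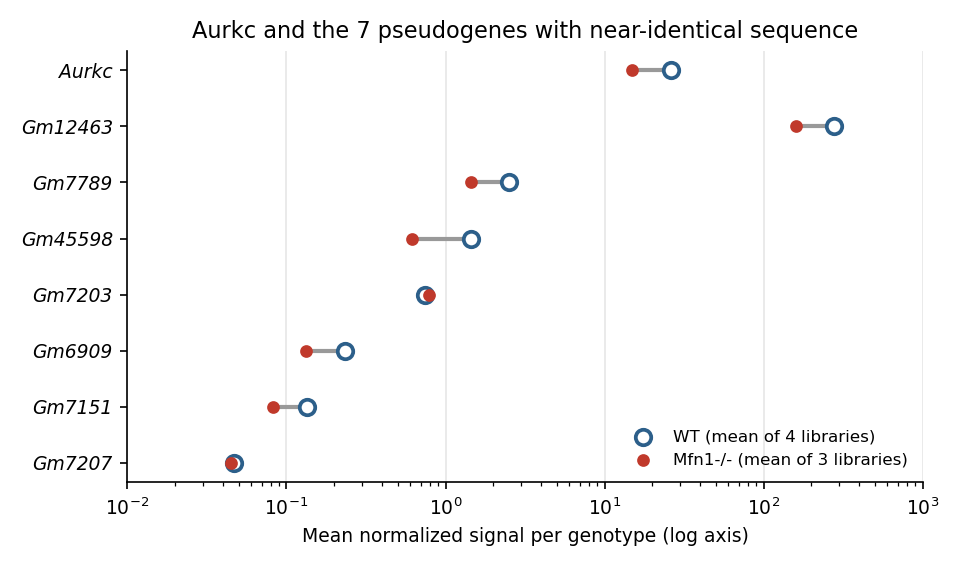
Mean normalized signal of Aurkc and of the 7 pseudogenes that share near-identical sequence with it, on a log axis, with open circles for WT (mean of 4 libraries) and filled circles for Mfn1-/- (mean of 3 libraries). Gm12463 lies highest, at 277 in WT and 161 in Mfn1-/-, and Gm7203 is the only gene shown whose Mfn1-/- mean is the higher one.

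Other members share shorter stretches. Mad2l1 has 454 bases at 95.4% identity to Gm42430, which was at 4.6 in Mfn1-/- and 3.79 in WT oocytes. Stretches of 80 to 122 bases of Mad2l1 with at least 95% identity occur in 33 further genes, and Dynll1 was the most abundant of those with a row in the table, at 269 and 214. The pseudogene AC139157.1, not found by that criterion, holds 22 windows of 75 bases of Mad2l1 without a mismatch. Bub3 has such stretches of 120 and 104 bases in 2 genes with no row in the table used. Cdc20 has a stretch of 410 bases at 96.3% identity to the pseudogene Gm7856, which was at 0.775 in Mfn1-/- and 0.762 in WT oocytes. Its exons also share 53 bases with Elovl1 on the opposite strand, which was at 31.1 and 24.5. Plk1 shares 156 exon bases with Gm44985 on the opposite strand, at 0.205 and 0.319, and 84 of its windows of 75 bases occur there. Another 49 occur in the gene listed as Plk-ps1, at 0.579 and 0.777. Whether the counting used the strand is not given in the sources used here, so reads from these overlaps cannot be told apart.

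The members were then set against the whole table. Of the 10, 0 were past 2-fold in either direction, and of all genes 7.65% were (1749 of 22877). The share was 8.74% among the 6226 genes whose mean over the 7 libraries is 1 or more, which includes all 10 members, and 5.19% among the 1849 genes whose mean is 10 or more, which includes 6 of them. Of the calls over all genes, 1118 were higher and 631 lower in Mfn1-/- oocytes, and 818 and 916 after the median of genes with a mean of at least 1 was subtracted. Aurkc was the 1 member lower by at least 1.5-fold. Of genes with a mean of at least 1, 7.71% were lower by that much, and 4.98% of those with a mean of at least 10. With 10 genes, both the count of 0 past 2-fold and the count of 1 lower by at least 1.5-fold are near these shares.

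Most members had the lower mean in Mfn1-/- oocytes. Of the 10 members, 9 were lower, and of genes with a mean of at least 1, 34.2% were. The median log2 ratio of the members was -0.10, beside 0.04 for all genes, 0.16 for genes with a mean of at least 1 and 0.19 for those with a mean of at least 10. The sums behave in the same way, with the members' sum in Mfn1-/- oocytes at 0.879 times and that of all genes at 1.10 times the WT value. Since most expressed genes had slightly higher means in Mfn1-/- oocytes, the members' values may also be read relative to that shift of 0.16. All 10 then lie below 0, with a median of -0.26, and Aurkc lies at -0.98, just short of 2-fold. By construction, as many genes with a mean of at least 1 then lie below 0 as above it. With the genotype means scaled to the same sum, 9 of the 10 were lower and the median was -0.23. For 9 of the members the log2 ratio was negative in each of the settings tried, and for Aurkb it changed sign. A pseudocount cannot change the sign of a ratio, and both rescalings lower every ratio. Ratios that were negative as reported therefore could not turn positive under them, and the constant sign is no separate check.

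**Figure D3:**
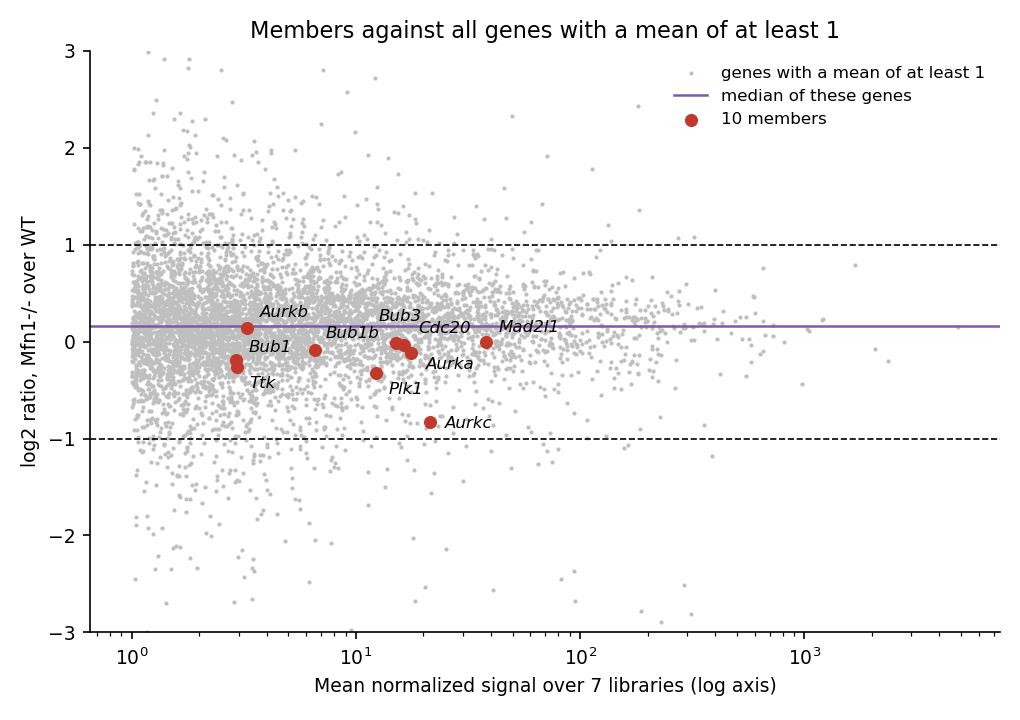
Log2 ratio of the Mfn1-/- over the WT mean against the mean over all 7 libraries (log axis) for genes whose mean is 1 or more in grey and the 10 members in red, with dashed lines at 2-fold and a line at the median of the grey genes, 0.16. The members lie between the dashed lines and below that median, with Aurkb next to it and Aurkc nearest to the lower dashed line, and 21 grey genes lie beyond the axis limit of 3.

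The proteins that work with these kinases were described from lists of genes chosen for their function. Each count of higher and lower means is followed by the count after the shift of 0.16 was subtracted, since it turned several lists. By construction, as many genes with a mean of at least 1 lie below that shift as above it. Over all genes the median log2 ratio became -0.12 after subtraction, so genes with low means tend to count as lower. Of 11 further checkpoint genes, 7 were higher and 4 lower in Mfn1-/- oocytes (4 and 7 after subtraction), 0 were past 2-fold, and the median log2 ratio was 0.08. Mad2l1bp (p31comet), which takes Mad2 out of its active complex, had the largest log2 ratio among those with a mean of at least 1, at 0.57, from 10.6 in Mfn1-/- oocytes and 7.12 in WT oocytes. Zwint, a kinetochore protein, was at 10.5 and 8.50, and Spdl1, which recruits dynein to kinetochores, at 8.20 and 7.74. Cenpe, the kinetochore kinesin, had the lowest ratio, with 2.66 and 3.58 (-0.42).

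Among 14 genes of the chromosomal passenger complex and Aurora cofactors, 6 were higher and 8 lower (3 and 11 after subtraction), 0 were past 2-fold, and the median was -0.13. Among the 10 of them with a mean of at least 1, 6 were higher and 4 lower, and the median was 0.03 before subtraction. After it, Incenp, Cdca8 and Tpx2 were higher and the others lower. By the mean over the 7 libraries, the 3 highest were Birc5 (survivin), Tacc3 and Haspin. Tacc3, a spindle protein bound by Aurora A, was at 54.5 in Mfn1-/- and 63.5 in WT oocytes. Haspin, the histone H3 kinase that brings the passenger complex to centromeres, was at 18.5 and 22.0. Birc5 was at 222 and 201. Birc5 thus stood far above Aurkb. Cdca8 (borealin) had the largest ratio of the list, at 1.29 times its WT mean of 15.5. Bora, the cofactor through which Aurora A activates Plk1, had the lowest ratio of those with a mean of at least 1, with 1.34 and 1.88 (-0.46). Among the 4 other polo-like kinases, Plk4 was at 2.85 and 3.08, Plk3 at 0.830 and 0.524 and Plk2 at 0.0203 and 0.0279. Of the 4, 2 were higher and 2 lower (1 and 3 after subtraction), 0 were past 2-fold, and the median was 0.03.

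The 21 genes of the anaphase-promoting complex and its regulators had 15 higher and 6 lower means in Mfn1-/- oocytes (9 and 12 after subtraction), with 0 past 2-fold and a median of 0.07. Pttg1 (securin), the separase inhibitor that the complex destroys, led with 385 in Mfn1-/- and 336 in WT oocytes, and Ube2c, its ubiquitin-conjugating enzyme, was at 43.5 and 33.4. Anapc13, a small subunit, had the largest ratio, with 3.36 and 2.20 (0.59). Fbxo5 (Emi1), an inhibitor of the complex, had the lowest, with 15.8 and 29.0 (-0.87), and was past 2-fold after subtraction (-1.03) and, narrowly, with the genotype means scaled to the same sum (-1.003); 4.29% of its windows of 75 bases occur in other genes. Fbxo43 (Emi2), the related inhibitor that holds eggs in metaphase II, was at 2.14 and 3.35 (-0.62); it was singled out after its value was seen.

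Of 15 kinetochore and centromere genes, which include the inner components Cenpa, Cenpc1 and Cenpt, 7 were higher and 8 lower (4 and 11 after subtraction), with a median of -0.04. Cenpt, which links centromeric chromatin to the microtubule-binding Ndc80 complex, was the 1 gene past 2-fold, with 8.76 in Mfn1-/- and 3.59 in WT oocytes (1.26). Spc24 and Spc25, both subunits of the Ndc80 complex, differed in direction, at 40.0 and 27.4 for Spc24 and at 13.3 and 15.0 for Spc25. Dsn1, of the Mis12 complex, was at 23.4 and 25.6. Cenpf had the lowest ratio of those with a mean of at least 1, with 5.68 and 7.84 (-0.46). Among the genes named from these lists, Anapc13 has 137 of 653 windows of 75 bases in common with Cep63, Ube2c 254 of 2117 with Tnnc2 and Tacc3 215 of 2825 with Tmem129, so their values are less certain.

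**Figure D4:**
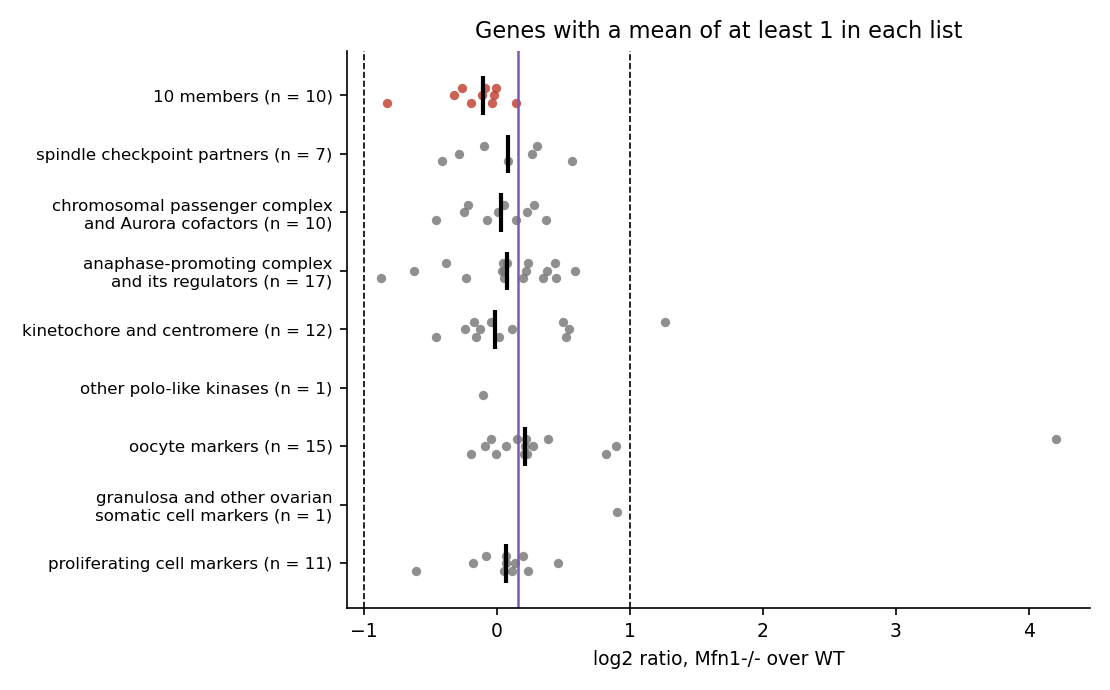
Log2 ratio of the Mfn1-/- over the WT mean for genes whose mean is 1 or more in each list (points), with a black bar at the median where a list has more than 1 such gene, dashed lines at 2-fold and a line at 0.16, the median of all genes with a mean of at least 1. Only Cenpt (1.26) and Sohlh1 (4.20) lie past 2-fold.

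Markers were used to check what the libraries hold. The 16 oocyte markers summed to 4771 in Mfn1-/- and 4388 in WT oocytes, with 11 higher and 5 lower (9 and 7 after subtraction) and a median of 0.21. By the mean over the 7 libraries, Ooep led with 1310 and 1120, followed by Dppa3 with 812 and 816. Mos, the kinase that drives meiotic arrest in metaphase II, came next with 631 and 673. In Mfn1-/- oocytes Zp3, at 708, was above Mos, and in WT oocytes Zp3 was below it, at 609. Of the 759 windows of Dppa3, 31 occur in Dppa3-ps, which was at 1090 and 1010, so the value of Dppa3 is less certain. Bmp15 had the lowest ratio of those with a mean of at least 1, with 158 and 181 (-0.20). Sohlh1, a transcription factor of early oocytes, was the 1 marker past 2-fold, with 3.68 in Mfn1-/- and 0.105 in WT oocytes (4.20). Of 18 markers of granulosa and other ovarian somatic cells, 15 had a row in the table used, 5 higher and 10 lower (3 and 12 after subtraction), with 0 past 2-fold and a median of -0.03. They summed to 2.61 and 2.01, and 10 of the 15 had means under 0.1. Inha was the most abundant, at 1.87 and 0.954. By the mean over the 7 libraries, Pecam1 came next, at 0.168 and 0.188, then Cyp19a1 at 0.0846 and 0.193. In WT oocytes Cyp19a1 was above Pecam1, and in Mfn1-/- oocytes Nr5a2, at 0.0974, was above Cyp19a1. Without Inha the sums were 0.745 and 1.05. Fshr, which defines granulosa cells, was at 0.0160 and 0.0171, near the lowest mean of the table. By these markers, the signal of the follicle's somatic cells was small beside that of the oocyte in both genotypes.

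The 12 markers of proliferating cells had 8 higher and 4 lower means (3 and 9 after subtraction), 0 past 2-fold and a median of 0.07. Pcna was at 20.5 in Mfn1-/- and 19.8 in WT oocytes, Rrm2 at 11.1 and 9.41, and Ccna2 at 8.85 and 8.03. E2f1 had the largest ratio, with 2.63 and 1.89 (0.46), and Mki67 the lowest, with 2.10 and 3.25 (-0.61). Of these, 23.7% of the Pcna windows occur in Pcna-ps2 and 15.2% of the Ccna2 windows in Exosc9.

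The members were also compared by the promoter sequences that RefSeq gives on GRCm38.p6, from 250 bases before to 50 bases after the transcript start. Of the 10 members, 9 had a window, and Aurkb did not. They were searched on both strands for TTTGAA, the cell cycle genes homology region (CHR) found in many genes expressed in G2 and mitosis, for CCAAT, the letters bound by NF-Y, and for TAATTG, an element bound by the oocyte factor NOBOX that can overlap the reverse complement of CCAAT. The CHR letters were in 6 of the 9 members and in 17.9% of all 32851 windows. CCAAT was in 8 of 9 members and in 37.4% of all windows. Both were held by 6 members, but the share of all windows holding both was not counted, so this count cannot be judged. TAATTG was in 0 of 9 members and in 8.00% of all windows. A match is only a run of letters, and binding was not measured.

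The windows of Aurka and Aurkc, the Aurora kinase genes that have one, are shown so that these letters can be seen in place. Capitals mark CHR and CCAAT letters on either strand. Aurka is read on the minus strand at chr2:172370521-172370820 and Aurkc on the plus strand at chr7:6995135-6995434.
Aurka: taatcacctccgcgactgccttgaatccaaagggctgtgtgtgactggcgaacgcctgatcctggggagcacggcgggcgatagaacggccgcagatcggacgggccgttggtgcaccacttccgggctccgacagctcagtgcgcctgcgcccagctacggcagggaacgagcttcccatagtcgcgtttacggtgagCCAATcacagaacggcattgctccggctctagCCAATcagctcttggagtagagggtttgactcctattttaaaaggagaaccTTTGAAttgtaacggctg
Aurkc: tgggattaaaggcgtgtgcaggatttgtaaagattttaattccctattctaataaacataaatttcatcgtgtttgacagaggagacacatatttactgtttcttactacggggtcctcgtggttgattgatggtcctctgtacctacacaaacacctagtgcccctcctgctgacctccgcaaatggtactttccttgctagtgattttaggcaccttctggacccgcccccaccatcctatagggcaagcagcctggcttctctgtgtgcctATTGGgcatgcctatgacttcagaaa
The Aurka window holds CCAAT letters 51 and 19 bases before the start and CHR letters 32 bases after it, with a GC content of 58.0%. The Aurkc window holds 1 CCAAT, on the opposite strand and 24 bases after the start, and no CHR letters, with a GC content of 46.0%, the lowest of the members. The median over all windows was 52.7%. Plk1 held CHR letters 30 bases after and CCAAT 14 bases before its start, Cdc20 held CHR letters 18 bases before its start, and Mad2l1 held none of the letters searched.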

How the data were processed

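Oocytes of secondary follicles were pooled, 5 to a library, and read as pairs of 75 bp. Trimming by the authors was done with Cutadapt and quality filtering with the FASTX-Toolkit, alignment was to GRCm38/mm10 with STAR, and gene counts went into the authors' DESeq2 comparison. The deposited signal is the authors' mean of normalized counts per genotype and their sum over libraries. Their normalization and gene annotation are not given in the sources used here. The series' own design text and the paper give n = 3 for each genotype, while the sum equaled 3 Mfn1-/- means plus 4 WT means within 1% in 100% of the genes. The deposited p-value, FDR, ratio and fold change are the authors' own comparison of the genotypes and were not used.

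For genes with 1 transcript, the step between low values shows that the signal is scaled by transcript length. Among genes with 1 transcript that were at the lowest mean in the other genotype, the excess times libraries times length fell between 176 and 180 in 32 genes of Mfn1-/- oocytes, with 1 and 5 in the neighbouring bins, and their lengths span 40.8-fold. By this step and the longest protein-coding transcript, the fewest steps behind a member were 112 in Mfn1-/- and 118 in WT oocytes, for Aurkb. Depth per library is unknown.

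The planned limma test needs values of single libraries and could not be fitted to 1 mean per genotype. The log2 ratio of the means was computed with a pseudocount of 0.1 and called past 2-fold. Genes named are the members, Mfn1 and, of each list, those past 2-fold and the 3 with the highest means over the 7 libraries. At a mean of at least 1, those with the largest and the lowest ratio were named too. Fshr, Fbxo43, Incenp, Tpx2, Zp3, Nr5a2 and the Aurkc copies were named beside the rule, after their values were seen. The members and lists were chosen with earlier results of these data known. Transcripts (GENCODE M21) were compared with blastn 2.17.0, counting stretches of at least 75 bases and 95% identity, and by 75-base windows on either strand. Python 3.11.15, numpy 2.4.6, pandas 2.3.3 and matplotlib 3.10.9 were used. The code for the calls was run on simulated genotype means without single libraries, which cannot judge the spread between libraries.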

Additional observations from a re-analysis of the deposited data

How the results depend on the processing

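No paired analysis was possible because the table used gives 1 mean per genotype, so the replicate numbers in the labels carry no values. For the same reason leaving out each replicate in turn was not run. Members past 2-fold numbered 0 with pseudocounts of 0.01 and 1, with genes of a mean of at least 1 only, with that median subtracted, with scaling to the same sum, and with Aurkc and Gm12463 summed (chosen after seeing the data). At 1.5-fold the number was 1 (Aurkc). All genes past the threshold, 1749 as reported, numbered 3922 with a pseudocount of 0.01, 321 with 1, 544 with genes of a mean of at least 1 only and 4419 at 1.5-fold, as the settings' own construction gives. The members' median log2 ratio, -0.10 as reported, was -0.10 with a pseudocount of 0.01, -0.093 with 1, -0.26 with the median subtracted, -0.23 with scaling to the same sum and -0.087 without Aurkc, an alternative chosen after seeing the data. Aurkc ranged from -0.98 to -0.79 and Plk1 from -0.48 to -0.30. Listed genes past 2-fold, 2 as reported, numbered 6 with a pseudocount of 0.01, where Cyp19a1, Ajuba, Foxl2 and Hsd17b1, all with low means, were added. They numbered 3, with Fbxo5 added, with the median subtracted and with scaling to the same sum, the latter chosen after seeing the data.

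Differences of a few percent cannot be judged without the spread between libraries, and pooling 5 oocytes hides variation between them.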
